A study of Mus musculus with 48 samples.

Results

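Genes of the red cell membrane and of blood group antigens were examined in single mouse cells labelled BFU-E. BFU-E are the burst-forming progenitors that stand near the beginning of the committed erythroid lineage. The members are 8 genes, Ermap, Icam4, Kel, Rhd, Rhag, Gypc, Ank1 and Epb4.1, taken by symbol from the 24062 genes of the count table. The table holds 48 cells, all labelled BFU-E from fetal liver of embryonic day 14.5. Per the labels, lineage-negative cells, depleted also of cells with Sca-1, CD16/CD32, CD41, CD34 and Ter119 on the surface, were selected for c-Kit, and the 10% with the lowest CD71 were sorted. No treatment, genotype or strain is given for these cells, and no CFU-E or mature erythroblast libraries were analysed here. The labels name no animal, litter or culture, so the 48 cells are 1 sample, no test was made, and differences between cells are given as descriptions.

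The mature red cell membrane is a lipid bilayer held to a spectrin and actin skeleton. Ankyrin, encoded by Ank1, ties the skeleton to the anion exchanger band 3, and protein 4.1, encoded by Epb4.1, strengthens the spectrin-actin junction and binds glycophorin C, encoded by Gypc. Rhag, an ammonia transporter, and Rhd form the Rh complex, in which the adhesion molecule encoded by Icam4 also sits. Kel is an endothelin-processing enzyme of the surface, and Ermap is an immunoglobulin-like membrane protein of erythroid cells. In humans the proteins of Ermap, Icam4, Kel and Rhd carry the Scianna, Landsteiner-Wiener, Kell and Rh antigens. Gata1, the master regulator of the lineage, and Klf1, an activator of late erythroid genes, are known regulators of many membrane genes.

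Total counts ran from 246007 to 3211186 per cell, and each cell had reads of 5180 to 7935 genes. In 2 cells the summed level of the macrophage complement genes C1qa, C1qb and C1qc was above 1000 CPM, and these are called macrophage-like. CPM are read counts relative to the scaled library size. All 8 members stayed below 10 CPM in the macrophage-like cells. Gypc was at 2.08 and 4.40 CPM there, Ermap at 0 and 2.93 CPM, and Icam4, Kel, Rhd, Ank1 and Epb4.1 had 0 reads. The other 46 cells were ordered by the erythroid regulators. In 16 cells both Gata1 and Klf1 reached 10 CPM, in 12 cells Gata1 did and Klf1 did not, and in 18 cells Gata1 was below 10 CPM. These sets are ranges of 2 transcript levels and not cell types. Their median total counts were 2147994, 1995295 and 1659078. No cell had Klf1 at 10 CPM without Gata1. Near the limits, 2 Gata1 cells had Klf1 between 5 and 10 CPM, 2 had it between 10 and 20 CPM, and 2 cells had Gata1 between 5 and 10 CPM.

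All 8 members had a read in at least 10 of the 48 cells, yet most of them were carried at a clear level by a minority. Epb4.1 was the most widespread, with a read in 45 cells and 10 CPM or more in 33 of 48 (68.8%, 95% Clopper-Pearson interval 53.7 to 81.3%). Ermap and Gypc each reached 10 CPM in 19 cells (39.6%, interval 25.8 to 54.7%). Icam4 did so in 14 cells, Rhag in 11, Kel in 9, and Rhd and Ank1 in 7 each (14.6%, interval 6.07 to 27.8%). These intervals treat cells as independent draws and cover counting error only, while all cells come from 1 sample.

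Reads below 10 CPM were common. Ermap had a read in 43 cells, and 24 of these were below 10 CPM, where the highest was 7.11 CPM. Rhag had a read in 29 cells, 18 of them below 10 CPM and at most 6.43 CPM, and its next cell stood at 24.7 CPM. Kel had 11 cells with a read at or below 4.62 CPM, and its lowest cell past the limit was at 13.6 CPM. For Rhd, 11 cells lay at or below 9.92 CPM and the next was at 54.9 CPM. In the macrophage-like cells Ermap, Rhag and Gypc were the members with a read, at 4.40 CPM or less. With every cell thinned to 246007 counts, a read was expected in 27.6 cells for Ermap, 25.7 for Gypc, 17 for Rhag, 12.5 for Kel, 10.9 for Rhd and 9.36 for Ank1, where 43, 41, 29, 20, 18 and 13 cells had one at full depth.

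Levels were uneven between cells. Over all 48 cells Ermap averaged 179 ± 316 CPM, Epb4.1 107 ± 195, Gypc 102 ± 209, Rhag 57.8 ± 148, Kel 40.2 ± 123, Rhd 30.4 ± 89.7, Ank1 15.7 ± 72.3 and Icam4 14.5 ± 25.1 CPM (SD over cells). Their highest cells held 1472 CPM of Ermap, 1007 CPM of Epb4.1, 877 CPM of Gypc, 694 CPM of Rhag, 525 CPM of Kel, 484 CPM of Ank1, 444 CPM of Rhd and 88.8 CPM of Icam4. A single cell supplied 64.1% of the Ank1 total, and the highest cell's share for the other members was between 12.8% for Icam4 and 30.4% for Rhd. Per kilobase of annotated exon the mean level ran from Gypc at 43.8 CPM, Ermap at 33.7, Rhag at 24.7, Rhd at 19.1, Kel at 14.5 and Icam4 at 13 to Epb4.1 at 6.72 and Ank1 at 1.16 CPM. The SD exceeded the mean for each member, and differences between neighbours in this order were not tested. Exon lengths are unions of all annotated transcripts, 15942 bases for Epb4.1 and 13527 for Ank1, which lowers their value per kilobase.

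**Figure D1:**
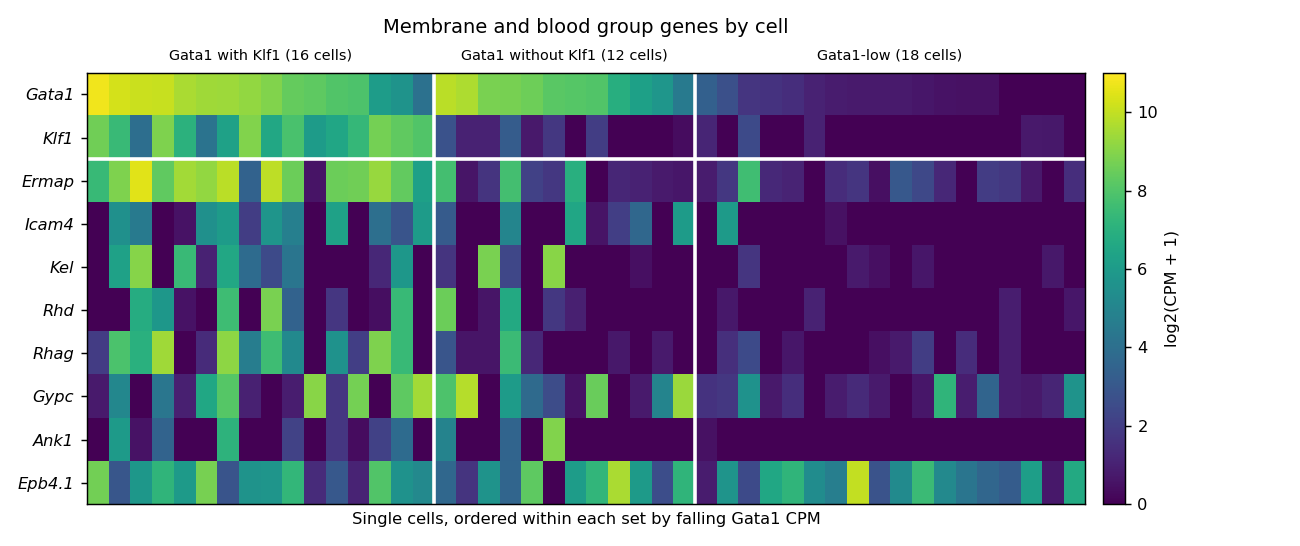
Each column is 1 of the 46 cells that were not macrophage-like, placed by set and by Gata1 level, and colour gives log2(CPM + 1) of Gata1, Klf1 and the 8 members. Bright Ermap and Rhag cells lie mostly among the 16 cells with Gata1 and Klf1, and Epb4.1 is bright in all 3 sets.

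Ermap had the highest rank correlation of the members with both regulators. In the 16 cells with Gata1 and Klf1 its level had a lowest value of 0.508, a median of 381 and a highest of 1472 CPM, in the 12 Gata1 cells without Klf1 0, 1.71 and 210 CPM, and in the 18 Gata1-low cells 0, 1.50 and 194 CPM. The sets overlapped, but 15 of 16 cells with both regulators were at 10 CPM or more (93.8%, interval 69.8 to 99.8%), against 3 of 12 Gata1 cells without Klf1 (25%, interval 5.49 to 57.2%) and 1 of 18 Gata1-low cells (5.56%, interval 0.14 to 27.3%). Summed reads were 17365 (exact Poisson interval 17108 to 17625), 1187 (1120 to 1257) and 137 (115 to 162) in these sets. Such intervals on reads also cover counting error only, since several reads may stem from 1 molecule. The mean was 487 ± 391 CPM with both regulators, 46 ± 83.7 CPM with Gata1 alone and 12.5 ± 45.4 CPM in Gata1-low cells, and the last value is 1.79 CPM without its highest cell. On the scale of log2(mean CPM + 1), cells with both regulators were 5.18 above Gata1-low cells and 3.38 above Gata1 cells without Klf1.

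Of the Rh complex, Rhag had the same order. Its lowest, median and highest values were 0, 42 and 694 CPM in cells with both regulators, 0, 0.534 and 178 CPM in Gata1 cells without Klf1, and 0, 0 and 4.57 CPM in Gata1-low cells. Rhag reached 10 CPM in 10 of 16 (62.5%, interval 35.4 to 84.8%), 1 of 12 and 0 of 18 cells, where the upper limit for 0 of 18 is 16.7% when taken as 3 counts and 18.5% by the Clopper-Pearson interval. The cell with 178 CPM decided the mean of the Gata1 cells without Klf1, which was 15.7 ± 51.1 CPM with it and 0.93 CPM without it, beside 161 ± 224 CPM with both regulators and 0.75 ± 1.27 CPM in Gata1-low cells. That cell had 8.10 CPM of Klf1, just under the limit. All 11 cells with Rhag at 10 CPM also had Ermap at 10 CPM, which is 100% of the Rhag cells and 57.9% of the 19 Ermap cells.

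Rhd was rarer. It was at or above 10 CPM in 5 of 16 cells with both regulators, 2 of 12 with Gata1 alone and 0 of 18 Gata1-low cells, with highest values of 444, 365 and 1.05 CPM. Its means were 61.7 ± 121, 39.2 ± 107 and 0.17 ± 0.34 CPM, and the median was below 1 CPM in each set. Without the highest cell of each set the means are 36.2 CPM with both regulators, 9.60 CPM with Gata1 alone and 0.118 CPM in Gata1-low cells. The 2 Rhd cells in the set without Klf1 had 8.10 and 5.90 CPM of Klf1. Of the 7 Rhd cells, 7 also held Ermap and 6 held Rhag at 10 CPM.

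Icam4, also of this complex, stayed below 100 CPM in every cell. Its 1110 exon bases are the fewest of the members. Per kilobase of exon, its median in cells at 10 CPM or more was 44 CPM, within a range from 2.18 (Ank1) to 107 (Rhd). Its lowest, median and highest values were 0, 18.8 and 76.4 CPM with both regulators, 0, 1.82 and 88.8 CPM with Gata1 alone and 0, 0 and 62.9 CPM in Gata1-low cells. It reached 10 CPM in 9 of 16, 4 of 12 and 1 of 18 cells. The means were 26.3 ± 27.5, 17.4 ± 29.7 and 3.52 ± 14.8 CPM, and without the highest cell of each set they are 23, 10.9 and 0.0238 CPM. The antisense gene Gm47079 lies across 1110 bases of Icam4 exons, and the strand setting of the counting is not given in the sources used here, so reads of the 2 cannot be told apart.

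**Figure D2:**
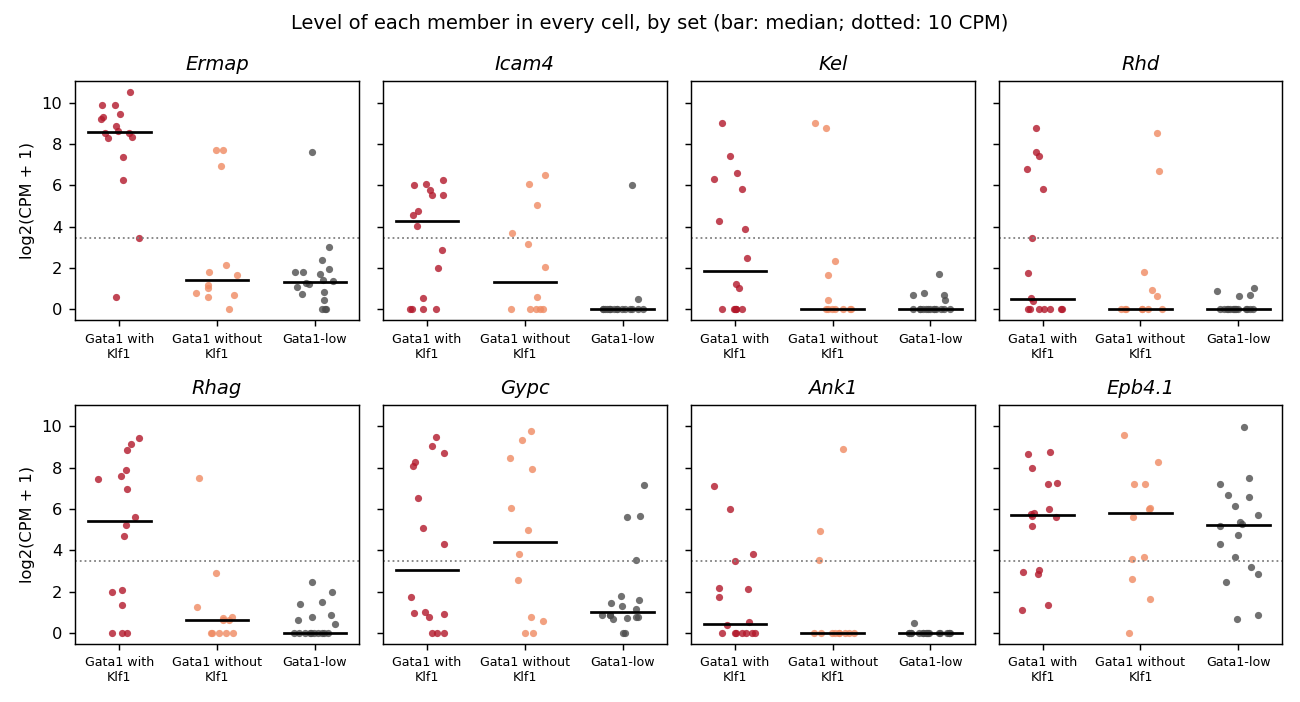
Each point is 1 cell, the vertical axis is log2(CPM + 1), bars are medians and the dotted line is 10 CPM, with the sets of 16, 12 and 18 cells from left to right. Of the 16 cells with both regulators 15 lie above the line for Ermap. Kel, Rhd and Ank1 have most cells below the line, many of them at 0, and a few high cells. Epb4.1 has medians of 51.1, 55.7 and 36.6 CPM.

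Kel was at 10 CPM in 7 of 16, 2 of 12 and 0 of 18 cells, with highest values of 518, 525 and 2.29 CPM. The means were 59.8 ± 132 CPM with both regulators, 80.8 ± 188 CPM with Gata1 alone and 0.26 ± 0.57 CPM in Gata1-low cells. Both Kel cells without Klf1, at 525 and 437 CPM, had Gata1 at 292 and 446 CPM. The cell at 525 CPM had 357378 total counts. Without the highest cell of each set, the means are 29.2 CPM with both regulators and 40.3 CPM with Gata1 alone. The latter then rests on the cell at 437 CPM, since the next in that set was at 4.05 CPM. The log2 difference of cells with Klf1 over those without was -0.43, and 0.65 without the 5 cells of lowest total count. Summed reads of Kel were 2161 (interval 2071 to 2254), 1039 (977 to 1104) and 5 (1.62 to 11.7).

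Gypc, the skeleton's anchor in the membrane, was frequent in both sets of Gata1 cells. It reached 10 CPM in 8 of 16 (50.0%, interval 24.7 to 75.3%), 7 of 12 (58.3%, interval 27.7 to 84.8%) and 4 of 18 cells (22.2%, interval 6.41 to 47.6%). The lowest, median and highest values were 0, 10.7 and 709 CPM, 0, 21.5 and 877 CPM, and 0, 1.03 and 145 CPM. Its means were 149 ± 228, 187 ± 297 and 14.8 ± 35.8 CPM, and the sets overlapped widely. Without the highest cell of each set the means are 112, 124 and 7.18 CPM. Gypc and Ermap were only partly found together: 10 cells held both at 10 CPM, 9 held Ermap alone, 9 Gypc alone and 18 neither, with a Spearman rho of -0.01 over the 46 cells.

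Ank1 was at 10 CPM in 4 of 16, 3 of 12 and 0 of 18 cells. Its highest values were 135, 484 and 0.40 CPM, and its summed reads were 533 (interval 489 to 580), 280 (248 to 315) and 1 (0.03 to 5.57). The mean was 14.4 ± 35.7 CPM with both regulators and 43.7 ± 139 CPM with Gata1 alone. The cell at 484 CPM, which had 357378 total counts, sets that order, since the mean with Gata1 alone is 3.64 CPM without it, beside 6.36 CPM with both regulators without the highest cell there. Epb4.1 was frequent in all 3 sets. It was at 10 CPM in 11 of 16 (68.8%), 9 of 12 (75.0%) and 13 of 18 cells (72.2%), with means of 107 ± 139, 133 ± 223 and 102 ± 232 CPM and a highest cell of 1007 CPM in the Gata1-low set. Without the highest cell of each set the Epb4.1 means are 85.6, 73.8 and 48.8 CPM. The paralogs Ank2 and Ank3, of other tissues, reached 10 CPM in no cell.

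**Figure D3:**
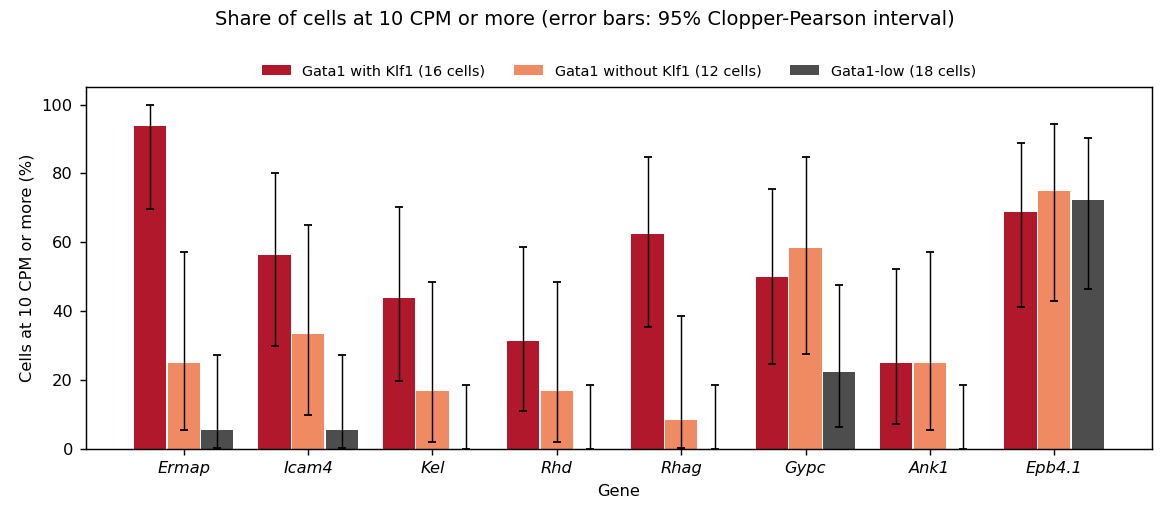
Bars give the percentage of cells at 10 CPM or more for each member in the sets of 16, 12 and 18 cells, and error bars are 95% Clopper-Pearson intervals. Ermap runs from 93.8% over 25% to 5.56%, and Epb4.1 lies between 68.8% and 75.0% in each set.

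Set against all genes, 7 of the 8 members were at least 2-fold higher in cells with Gata1 and Klf1 than in Gata1-low cells, the exception being Epb4.1 at a log2 difference of 0.07. The same held for 20.9% of the 8524 genes tested, and 0 members but 24% of genes were at least 2-fold lower. Genes were tested where 10 or more cells had a read and the mean reached 5 CPM, which all 8 members passed. Icam4, Rhag, Kel, Rhd and Ank1 pass that filter only through the Gata1 cells, so their place among the 7 is not independent of the filter. Their means in Gata1-low cells were 3.52, 0.75, 0.26, 0.17 and 0.02 CPM. The median log2 difference was 4.55 over the members and -0.02 over all genes tested, with Rhag at 6.53, Rhd at 5.74, Kel at 5.60, Ermap at 5.18, Gypc at 3.25 and Icam4 at 2.60. The order among them depends on the setting. Ermap was above Rhag with the mean of log2 values (6.36 against 4.33) and without the 5 cells of lowest total count (7.44 against 6.78). The size depends on the 1 CPM added to each mean. With 10 CPM added, Ermap was at 4.47, Rhag at 3.99, Rhd at 2.82 and Kel at 2.77. With 0.1 CPM added they were at 5.28, 7.56, 7.84 and 7.40. Ank1, Rhd and Kel rest on 1, 4 and 5 reads in the Gata1-low cells. With a limit of 50 CPM for the regulators Gypc is at 0.20, and without the highest cell of each gene Epb4.1 is at 1.12. Gata1 cells without Klf1 were at least 2-fold above Gata1-low cells for the same 7 genes, where 20.5% of all genes tested were, while 0 members and 25.2% of genes were at least 2-fold lower, with a median of 3.41 against -0.05. Both comparisons use the same Gata1-low cells. Between the Gata1 cells with and without Klf1, 2 of 8 members were at least 2-fold higher with Klf1, Ermap at 3.38 and Rhag at 3.28, and 23.1% of all genes tested were. That count depends on the setting, with 6 members against 27.1% of genes at a limit of 1 CPM, 5 against 17.1% with the mean of log2 values and 4 against 21.2% without the highest cell of each gene. Ank1 was lower with Klf1 by more than 2-fold, at -1.53, where 21.7% of genes were, and it turns to 1.73 without the highest cell of each gene. With a limit of 5 CPM for Klf1, Rhd joined Ermap and Rhag, and 4 rather than 7 members were at least 2-fold higher in Gata1 cells without Klf1 than in Gata1-low cells.

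Single cells held the members in varied combinations. Leaving out Epb4.1, the 16 cells with both regulators held 1 to 7 of the 7 other members at 10 CPM, with a median of 3, and 12 of them held 3 or more. The 12 Gata1 cells without Klf1 held 0 to 6, with a median of 1, and 2 held 3 or more, which are the 2 cells with Klf1 at 5.90 and 8.10 CPM. The 18 Gata1-low cells held 0 to 2, and 13 held none. A single cell held all 7, with 938 CPM of Ermap, 567 CPM of Rhag, 270 CPM of Gypc, 193 CPM of Rhd, 135 CPM of Ank1, 95.1 CPM of Kel and 65.4 CPM of Icam4, at 668 CPM of Gata1 and 77.4 CPM of Klf1.

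**Figure D4:**
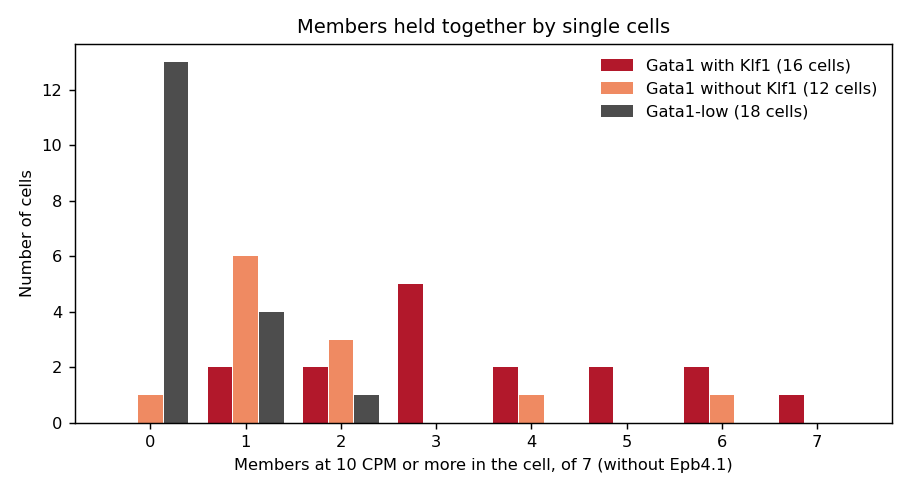
The horizontal axis counts how many of the 7 members other than Epb4.1 were at 10 CPM or more in a cell, and bars give the number of cells in the sets of 16, 12 and 18. Of the Gata1-low cells 13 stand at 0, and cells with both regulators reach 7.

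Across the 46 cells, Spearman rho with Klf1 was 0.61 for Ermap, 0.55 for Ank1, 0.55 for Rhag, 0.44 for Kel, 0.35 for Icam4, 0.35 for Rhd, 0.25 for Gypc and -0.03 for Epb4.1. With Gata1 it was 0.55 for Ermap, 0.49 for Rhag, 0.17 for Gypc and 0.09 for Epb4.1. With the total count it lay between -0.12 for Rhd and 0.20 for Icam4. These are descriptions over cells that share 1 preparation and many values at or near 0. The genes most like Ermap were Blvrb, a biliverdin reductase of erythroid cells (rho 0.78), Rhag (0.69) and Snord52 (0.65). Those most like Icam4 were Smim1 (0.67), the gene of the human Vel antigen, the urea transporter Slc14a1 (0.65), whose human protein carries the Kidd antigens, and the ion cotransporter Slc12a2 (0.64). Rhag was closest to Ermap (0.69), Tnfaip2 (0.65) and Snord52 (0.58), Rhd to Col5a1 (0.66), Abcb4 (0.62) and Ank1 (0.59), and Ank1 to Slc38a5 (0.66), Abcb4 (0.62) and Rhd (0.59). Kel was closest to Dmwd (0.63), Mt1 (0.61) and Pelp1 (0.61), Gypc to Zbtb33 (0.59), Foxo1 (0.54) and Gcnt1 (0.53), and Epb4.1 to Sec61b (0.53), Cfl1 (0.52) and Mrpl57 (0.48). The summed level of the members was closest to the iron transporter Slc11a2 (0.71), Gata1 (0.70), Blvrb (0.66), Klf1 (0.64) and Gm15915 (0.63).

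Ermap, Icam4, Kel, Rhd and Rhag were at least 2-fold higher with Gata1 and Klf1 than in Gata1-low cells, and Epb4.1 was not. Of these, Icam4, Kel, Rhd and Rhag pass the filter only through the Gata1 cells. The log2 difference of Epb4.1 was 0.07, but 1.12 without the highest cell of each gene. For Gata1 cells without Klf1 the difference depends on the limit. At 5 CPM for Klf1 its log2 value was 0.08 for Ermap, 0.25 for Rhd and -0.34 for Rhag. Icam4 and Kel were at 1.99 and 6.28 there. The 250 bases before the RefSeq transcript starts (GRCm38.p6) of these 5 genes and of Epb4.1 are shown. Each is written 5′ to 3′ along the gene. Capitals mark GATAA or its reverse complement TTATC, the core bound by GATA factors, and CACCC or its reverse complement GGGTG, the core bound by Klf factors.
Ermap (chr4:119189996-119190245, minus strand): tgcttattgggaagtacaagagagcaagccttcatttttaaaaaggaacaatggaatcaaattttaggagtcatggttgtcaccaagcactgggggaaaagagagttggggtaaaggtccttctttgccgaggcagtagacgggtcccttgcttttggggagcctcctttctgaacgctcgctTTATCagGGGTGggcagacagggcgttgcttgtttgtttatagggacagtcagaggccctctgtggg
Icam4 (chr9:21029182-21029431, plus strand): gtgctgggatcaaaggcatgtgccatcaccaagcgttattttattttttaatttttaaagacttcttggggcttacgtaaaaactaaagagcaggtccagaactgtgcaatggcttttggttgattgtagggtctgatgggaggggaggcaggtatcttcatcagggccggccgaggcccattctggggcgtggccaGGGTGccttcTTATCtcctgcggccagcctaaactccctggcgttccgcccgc
Kel (chr6:41704326-41704575, minus strand): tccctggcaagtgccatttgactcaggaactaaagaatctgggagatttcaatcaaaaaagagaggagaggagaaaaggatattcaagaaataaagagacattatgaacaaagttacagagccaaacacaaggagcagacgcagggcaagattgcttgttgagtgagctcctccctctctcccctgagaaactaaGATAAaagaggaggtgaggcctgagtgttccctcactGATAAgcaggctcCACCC
Rhd (chr4:134864286-134864535, plus strand): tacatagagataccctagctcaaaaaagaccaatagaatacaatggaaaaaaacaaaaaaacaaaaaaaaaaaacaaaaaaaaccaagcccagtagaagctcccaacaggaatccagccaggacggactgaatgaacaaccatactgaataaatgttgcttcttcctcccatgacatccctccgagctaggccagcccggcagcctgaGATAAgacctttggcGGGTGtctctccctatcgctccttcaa
Rhag (chr17:40810899-40811148, plus strand): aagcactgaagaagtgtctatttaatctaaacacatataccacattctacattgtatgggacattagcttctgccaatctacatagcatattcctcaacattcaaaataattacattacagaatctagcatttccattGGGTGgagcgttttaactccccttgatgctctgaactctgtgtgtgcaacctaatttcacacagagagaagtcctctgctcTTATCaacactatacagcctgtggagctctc
Epb4.1 (chr4:132075314-132075563, minus strand): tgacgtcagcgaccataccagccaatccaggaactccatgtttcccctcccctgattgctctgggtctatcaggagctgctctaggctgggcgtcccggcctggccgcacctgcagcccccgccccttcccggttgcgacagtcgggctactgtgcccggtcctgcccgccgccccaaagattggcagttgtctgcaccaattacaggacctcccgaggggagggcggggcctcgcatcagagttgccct
Gypc and Ank1, also at least 2-fold higher with both regulators than in Gata1-low cells, had no RefSeq promoter entry and are not covered. Ermap, Icam4, Kel, Rhd and Rhag each had GATAA on 1 strand within 67 bases of the start, Kel with 2 of them. Each of these 5 also had 1 CACCC core within 112 bases, with no overlap between motifs. None was present in the window of Epb4.1 or in those of its 2 other listed starts. Of all 32851 promoter windows of this length, 22.6% held GATAA, 52.0% held CACCC and 10.1% held both. These matches are letters in a window and not measured binding. Ermap, Rhd and Epb4.1 all lie on chromosome 4, at 119175457 to 119190011, 134864536 to 134896172 and 131923413 to 132075321, while Icam4 is on chromosome 9, Kel on 6, Rhag on 17, Gypc on 18 and Ank1 on 8.

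Among other genes of the membrane, the list of blood group antigen genes had 28 in the table, 6 of them members, and 20 passed the filter. Of these 13 were at least 2-fold higher in cells with both regulators than in Gata1-low cells and 1 was lower, with a median log2 difference of 2.81. Without the 6 members, 7 of 14 were higher and 1 lower, with a median of 0.90, beside 20.9% higher and 24% lower among all genes tested. Smim1 was at 10 CPM in 15 of 16 cells with both regulators, 7 of 12 with Gata1 alone and 1 of 18 Gata1-low cells, with means of 78.9 ± 64.7, 68.2 ± 79.3 and 1.78 ± 7.18 CPM, as well as in 1 macrophage-like cell at 279 CPM. Slc14a1 averaged 177 ± 231, 308 ± 472 and 28.8 ± 86.0 CPM. Xk, whose product is bound to the Kel protein, was at 10 CPM in 2 of 16, 4 of 12 and 2 of 18 cells and averaged 7.42 ± 17.7, 117 ± 256 and 6.90 ± 19.5 CPM. The 1 lower gene was Cd55, a complement regulator, with means of 5.25, 10.3 and 76.5 CPM, the last of which is 7.71 CPM without its highest cell.

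The spectrin-actin skeleton list showed no common direction. The table holds 18 of its genes, of which 15 passed the filter, 7 were at least 2-fold higher with both regulators than in Gata1-low cells and 3 lower, with a median of 0.07. Without Ank1 and Epb4.1 these counts are 6 and 3 of 13. Sptbn1 and Sptan1, spectrins found in many tissues, were lower with both regulators, at 209 and 1.59 CPM, against 832 and 18.9 CPM in Gata1-low cells. Epb4.2, which binds band 3, rested on 1 cell at 659 CPM, since its mean of 43.3 CPM with both regulators is 2.22 CPM without it. Slc4a1, the gene of band 3, and Sptb, the red cell beta spectrin, were listed at 0 in every cell. Of the 8 genes listed for band 3 and the Rh complex 6 passed the filter, and 5 of these were at least 2-fold higher and 0 lower, but 4 of the 5 are Gypc, Rhd, Rhag and Icam4 and the other is Epb4.2. Of 13 membrane transporters and channels 5 were higher and 1 lower, among the higher Atp1b2, a sodium pump subunit, at 10 CPM in 12 of 16, 1 of 12 and 0 of 18 cells. Of 14 paralogs known from other tissues 4 passed, 1 of them higher (Icam2) and 2 lower (Epb4.1l2 and Icam1).

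Markers of other cell types moved with the sets. Of 11 neutrophil and monocyte genes that passed the filter, 11 were at least 2-fold lower with both regulators than in Gata1-low cells. The summed level of that list of 12 had lowest, median and highest values of 7.28, 79.8 and 1183 CPM with both regulators, 18.1, 278 and 8663 CPM with Gata1 alone, and 25.7, 7706 and 76305 CPM in Gata1-low cells, and Cebpa and Cebpe were at 0 in cells with both regulators. Mpo, the myeloperoxidase of granulocyte precursors, had medians of 37.1, 121 and 4797 CPM, and its rho with the members ran from -0.60 for Icam4 to -0.09 for Epb4.1. The summed megakaryocyte list had medians of 5.73, 602 and 89.7 CPM and ranges of 0 to 545, 0 to 2589 and 0.67 to 2288 CPM, with Ppbp and Gp6 at 0 throughout, and of its 4 genes that passed the filter 2 were higher with both regulators than in Gata1-low cells and 1 lower. The mast cell and basophil list had medians of 2.82, 3.09 and 246 CPM, Prss34, Tpsab1 and Gzmb were at 0, and both genes that passed the filter were lower with both regulators than in Gata1-low cells. Of the macrophage list 4 of 5 genes that passed were higher and 0 lower. Its summed medians were 4.47, 2.94 and 13.6 CPM. The highest value with both regulators was 2762 CPM in 1 cell, and the next in that set was 49.8 CPM. C1qb averaged 21.6 CPM with both regulators and 1.41 CPM in Gata1-low cells. The first of these means rests on the cell at 2762 CPM, which held 338 CPM of C1qb, where the next in its set held 2.39 CPM. Whether Cd5l, Hmox1 and Slc40a1 stay higher without the cell at 2762 CPM was not tested. The counts of 7, 2 and 7 members stayed the same without it. The medians of the lymphoid, hepatoblast and endothelial and stromal lists were at most 22.7 CPM in each set, and their highest single cells held 442, 866 and 501 CPM. The part of these lists in the members' differences was not tested.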

How the data were processed

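RNA of 48 single cells labelled BFU-E was measured as full-length cDNA made on a Fluidigm C1 chip, with Nextera XT libraries, per the labels' protocols. The deposited table holds raw read counts per gene, for which the submitters' processing notes name mm10, TopHat2 2.0.12, Subread and featureCounts 1.4.6. A deposited log2 table by the authors was checked: it equals log2 of the count over a size factor, plus 1, within 1e-06. Its columns, like those of the counts, are sequencing-run names found in none of the titles, and each cell therefore has only the label shared by all.

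CPM used TMM library sizes (edgeR 4.0.16 in R 4.3.3; factors from 0.419 to 1.70). Differences between sets are log2 of the ratio of mean CPM plus a pseudocount of 1, with 2-fold as the threshold. Python 3.11.15, numpy 2.4.6, pandas 2.3.3, scipy 1.17.1 and matplotlib 3.10.9 were used, and DESeq2 1.42.0 for an alternative scaling. The difference step was tested on simulated data. Genes named are the members, list genes, the 3 closest genes of each member by Spearman rho, the 5 closest to their sum, Gata1, Klf1 and Mpo. The members and lists were chosen with earlier results of these data known. Positions are from GENCODE M21 (GRCm38), and Epb4.1 is its Epb41. Promoter sequences are from RefSeq, which had entries for 6 of 8 members. Alternatives were other scalings, limits, pseudocounts, filters, cells and summaries.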

Additional observations from a re-analysis of the deposited data

How the results depend on the processing

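Counts of members kept within 1.5 times of the reported value under most of the 13 alternatives to each comparison. The number read in at least 10 cells was 8, and 5 when 10 CPM was needed. Members at least 2-fold higher with Gata1 and Klf1 than in Gata1-low cells numbered 7, and 6 to 8 under every alternative run. Between Gata1 cells with and without Klf1 the number was 2, and 6 with a limit of 1 CPM, 4 without the highest cell of each gene and 5 with the mean of log2 values. Between Gata1 cells without Klf1 and Gata1-low cells it was 7, and 3 with a limit of 1 CPM and 4 with a limit of 5 CPM for Klf1. The last setting, and leaving out the cell with C1q reads, were chosen after seeing the data. The sign for Ank1 between Gata1 cells with and without Klf1 turned to 4.96 with a limit of 1 CPM, 1.81 without the 5 cells of lowest total count, 1.73 without the highest cell and 0.26 with the mean of log2 values. In each of these settings the cell at 484 CPM is left out, moved or given less weight. Between Gata1 cells without Klf1 and Gata1-low cells, Kel turned to -0.20 with a limit of 1 CPM and Rhag to -0.34 with a limit of 5 CPM for Klf1, since the highest cells of these genes then count as cells with Klf1. Gypc between cells with both regulators and Gata1-low cells was 0.20 with a limit of 50 CPM. Of the values for single members, 284 kept their side of 2-fold, 22 crossed it, and 6 that had been past 2-fold turned sign. DESeq2 size factors moved the median of all genes to -0.15 from -0.02 between the cells with both regulators and Gata1-low cells. No paired analysis was possible because there is 1 group.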

Other observations

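Some cells held a member at 10 CPM or more while Gata1, Klf1 or both were below 10 CPM. The Gata1-low cell at 194 CPM of Ermap had 2.29 CPM of Gata1 and 4.57 CPM of Klf1, a total count of 507732, and 48 CPM of Gypc. The Gata1-low cell at 62.9 CPM of Icam4 had 5.50 CPM of Gata1 and 18.3 CPM of Mpo, the lowest Mpo of its set. The Gata1-low cell at 145 CPM of Gypc had 0.449 CPM of Gata1 and 5709 CPM of Mpo. The Gypc maximum, 877 CPM, was in a cell with 811 CPM of Gata1, 1.06 CPM of Klf1 and 6329 CPM of Mpo, in which Ermap was at 0.528 CPM. Conversely, the cell with the highest Gata1, 1722 CPM, had 390 CPM of Klf1, 167 CPM of Ermap and 405 CPM of Epb4.1, and each of the other members was below 3 CPM.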
